A study of Mus musculus with 12 samples.

Results

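The 9 genes described here decide how the liver makes, releases, takes up and stores glucose. They are Pck1, Fbp1, G6pc, Slc37a4, Ppargc1a, Slc2a2, Gckr, Pklr and Gys2, and their probes were found by the RefSeq accession printed in the array design. They had 11 probes, 2 each for Gys2 and Ppargc1a and 1 for each other gene. All 9 genes were among the 16916 genes and unnamed transcripts with a probe well above background on every array, of 32524 on the array. Liver RNA came from 6 Floxed mice, which carried homozygous floxed alleles of Phgdh (Phgdh flox/flox), and from 6 LKO mice of the genotype Alb+/Cre;Phgdh flox/flox. Phgdh encodes the first enzyme of serine synthesis from a glycolytic intermediate. Cre was driven by the albumin promoter and acts in hepatocytes, so the other cells of the liver keep Phgdh, and the Floxed mice were littermates without Cre. All mice were males on a C57BL/6 background, 30 weeks old, with free access to chow containing 20% casein, and the time since the last meal is not given in the sources used here. Each mouse was measured on 1 single-color array. The study asked how the loss of Phgdh in hepatocytes bears on glucose handling, and the comparison here asks whether the mRNA of these genes differed between the genotypes.

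Gluconeogenesis runs in the hepatocyte from lactate, amino acids and glycerol up to glucose. Pck1 makes phosphoenolpyruvate, Fbp1 removes a phosphate from fructose 1,6-bisphosphate, and G6pc, which works with the transporter encoded by Slc37a4 in the endoplasmic reticulum, frees glucose from glucose 6-phosphate. Glucagon and fasting raise Pck1, G6pc and their coactivator Ppargc1a, and insulin lowers them. Slc2a2 (GLUT2) carries glucose across the hepatocyte membrane, Gckr regulates the first use of glucose in the hepatocyte, Pklr catalyzes the last step of glycolysis and is induced by carbohydrate feeding, and Gys2 is the liver glycogen synthase.

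The promoters of Pck1, G6pc and Pklr are shown because these 3 genes varied most between the mice, and because the letters of well-known hormone and carbohydrate response motifs lie in them. Each line gives the 250 bases before an annotated transcript start, 5′ to 3′ on the plus strand of the mouse genome (RefSeq, GRCm38.p6), and capitals mark the motif.
Pck1, chr2:173152823-173153072: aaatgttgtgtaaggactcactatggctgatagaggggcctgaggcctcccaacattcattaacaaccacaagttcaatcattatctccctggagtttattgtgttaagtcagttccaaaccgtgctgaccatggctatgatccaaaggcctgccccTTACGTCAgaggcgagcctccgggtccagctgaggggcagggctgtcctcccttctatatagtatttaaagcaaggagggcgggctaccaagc
G6pc, chr11:101367466-101367715: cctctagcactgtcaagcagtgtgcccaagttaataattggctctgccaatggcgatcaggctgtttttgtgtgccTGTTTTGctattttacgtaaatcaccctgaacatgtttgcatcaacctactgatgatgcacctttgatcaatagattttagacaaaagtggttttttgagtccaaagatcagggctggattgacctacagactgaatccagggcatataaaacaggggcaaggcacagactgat
Pklr, chr3:89136373-89136622: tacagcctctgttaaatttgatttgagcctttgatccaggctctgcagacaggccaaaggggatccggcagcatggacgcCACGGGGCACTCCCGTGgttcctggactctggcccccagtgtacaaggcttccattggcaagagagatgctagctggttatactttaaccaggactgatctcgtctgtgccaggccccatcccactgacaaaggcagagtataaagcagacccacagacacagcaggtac
The capitals in Pck1 are TTACGTCA, a cyclic AMP response element, whose first base lies 93 bases before the start. The same letters stood, on either strand, in 0.447% of 32851 mouse promoter windows of this length, and the palindromic form TGACGTCA, found in no window of the 9 genes, stood in 1.55%. The capitals in G6pc are TGTTTTG, the core of an insulin response motif bound by FoxO factors, 174 bases before the start. These letters stood in 5.56% of the windows, and among the 9 genes also in Gckr, 83 bases before its start. The capitals in Pklr, 170 bases before the second of its annotated starts, are a carbohydrate response element, which consists of the half-sites CACGNG and CNCGTG with 5 bases between them. This arrangement stood in 13 windows, or 0.0396%. Of the 9 genes, 8 had a promoter sequence at hand, and a match of letters is a description and not a measured binding site.

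Probe levels are given as log2 normalized intensity, a scale that sets a probe against itself in other mice and not against other probes. Deletion of Phgdh was checked first. Its brighter probe read a lowest, median and highest value of 4.81, 5.17 and 5.50 in Floxed mice and 4.23, 4.57 and 5.30 in LKO mice. The log2 fold change of LKO over Floxed was -0.48 (SE 0.18, unadjusted limma p = 0.018, adjusted p = 0.451, exact permutation p = 0.035), and the groups overlapped. The 12 arrays lay on 3 slides, with Floxed mice 1 to 4 on slide 1, Floxed mice 5 and 6 and LKO mice 1 and 2 on slide 2, and LKO mice 3 to 6 on slide 3. Within slide 2, the only slide with both genotypes, the Phgdh difference was -0.05, so that the libraries labelled LKO 1 and 2 did not stand apart from Floxed mice by this probe. The site of this probe in the gene, and so whether Cre removes it, was not analysed here. The dimmer of the 2 Phgdh probes was measured above the background mark in 1 Floxed and 3 LKO mice, and its log2 fold change was 0.30. The study itself detected the deleted allele in LKO liver by PCR. It also reported lower Phgdh mRNA by quantitative PCR and lower protein by Western blot. Signal strength differed between arrays, with a 75th percentile of intensity from 239 in LKO 5 to 473 in Floxed 4 before normalization. The liver identity of the samples was checked with 10 hepatocyte markers, which include Alb, Ttr and Apoa1. All 10 were well above background on every array. Their mean deviation from each gene's mean ranged from -0.03 to 0.10 in Floxed and from -0.10 to 0.02 in LKO mice, with 6 of 10 lower in LKO, 3 higher and none past the threshold. The remaining marker, Serpina1a, read 18.77 on all 12 arrays after normalization and so could show no difference. The mean deviation of the 10 markers was 0.04 in Floxed and -0.04 in LKO mice (exact permutation p = 0.022, not adjusted over lists). Its LKO minus Floxed difference was -0.02 within slide 2 and -0.11 between slides 3 and 1. In bulk liver RNA, fewer cells of a type and less RNA per cell cannot be told apart.

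None of the 9 genes passed the threshold between LKO and Floxed mice. The threshold was the unadjusted limma p below 0.05 that the methods of the study use, which 8.35% of all tested genes passed, 4.92% with a higher and 3.43% with a lower level in LKO mice. After Benjamini-Hochberg adjustment 0.0% of tested genes passed. Unadjusted p-values of the 9 genes in limma ran from 0.319 to 0.995, and their adjusted p-values from 0.921 to 0.999. Of the 9, 3 had a higher and 6 a lower mean in LKO mice, and their log2 fold changes had the median -0.03, where that of all tested genes was -0.0035. In each of the 9 genes the values of the groups overlapped, while 0.296% of all tested genes had groups without overlap. With 6 mice a group the 95% intervals below are wide for Pck1, G6pc and Pklr and narrow for Fbp1, so the data bound the change in some of these genes far better than in others.

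**Figure D1:**
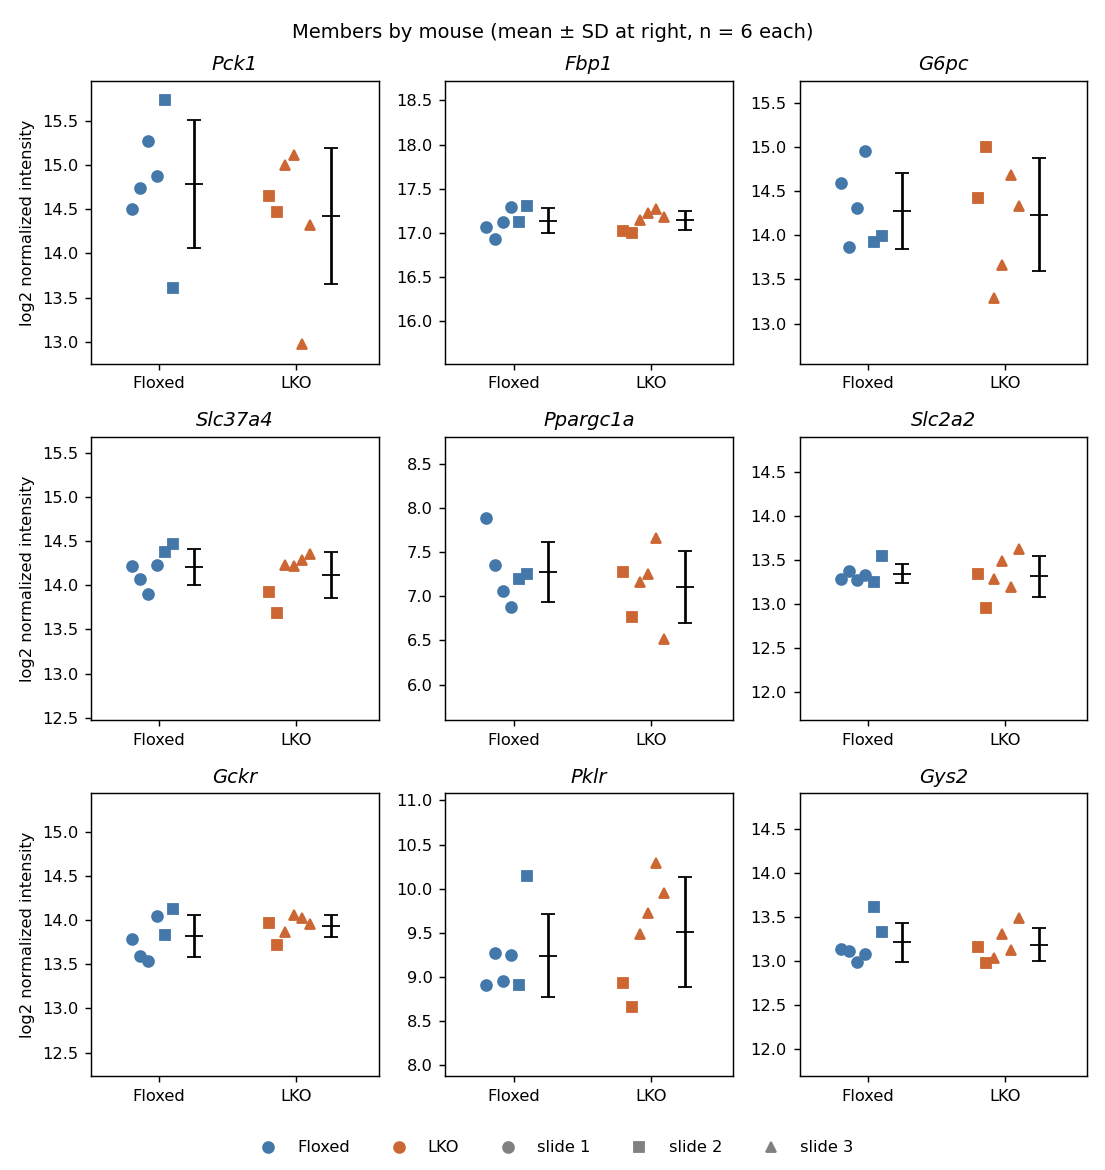
Log2 normalized intensity (y axis, the same span of 3.2 units in every panel) of the 9 genes in each Floxed and LKO mouse; the symbol gives the slide, and the bar at the right of each group is the mean ± SD (n = 6). Pck1, G6pc and Pklr spread widely within both genotypes, Fbp1 lies between 16.93 and 17.31 in all 12 mice, and in every panel the groups overlap.

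Of the enzymes of glucose production, Pck1 had the largest difference in mean. It read 13.61, 14.80 and 15.73 (lowest, median, highest) in Floxed and 12.97, 14.56 and 15.11 in LKO mice. The highest mouse was Floxed 5, and the lowest were LKO 5 and Floxed 6, while mice of both genotypes were mixed between them. The log2 fold change was -0.37 (SE 0.38, 95% interval -1.19 to 0.46), which as a ratio of LKO to Floxed is 0.776, with bounds of 0.437 and 1.38. Without LKO 5 the log2 fold change was -0.07, and without Floxed 6 it was -0.60. The size of the Pck1 difference thus rested on single mice.

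Fbp1 was the steadiest of the 9 genes. Its level read 16.93, 17.12 and 17.31 in Floxed and 17.00, 17.17 and 17.27 in LKO mice. The means were 17.14 ± 0.14 and 17.14 ± 0.11 (SD, n = 6 each). The 95% interval of the log2 fold change, -0.18 to 0.18, is a ratio of LKO to Floxed from 0.882 to 1.13, the narrowest of the 9 genes.

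G6pc and its transporter partner Slc37a4 are the exit from the pathway. G6pc read 13.86, 14.15 and 14.95 in Floxed mice and 13.29, 14.37 and 15.00 in LKO mice. Both the lowest mice (LKO 3 and 4) and the highest mouse (LKO 2) were LKO, so the LKO values enclosed all the Floxed values. The log2 fold change was -0.04 (SE 0.28, interval -0.65 to 0.57). Slc37a4 read 13.90, 14.22 and 14.47 in Floxed mice and 13.68, 14.23 and 14.35 in LKO mice, a log2 fold change of -0.10 (SE 0.13, interval -0.37 to 0.18). The lowest Slc37a4 value belonged to LKO 2, the mouse with the highest G6pc. Ppargc1a, the coactivator that turns on Pck1 and G6pc in fasting, read 6.88, 7.23 and 7.88 in Floxed and 6.52, 7.21 and 7.66 in LKO mice (log2 fold change -0.17, SE 0.20). Its second probe was dim, well above background on 5 of 6 arrays in each genotype, and differed by 0.05. The 2 Ppargc1a probes did not track each other over the 12 mice (Pearson r = -0.07, permutation p = 0.814, and Spearman rho = 0.41, permutation p = 0.192). Without Floxed 1 and LKO 6 the r was 0.82, and in LKO 6 the brighter probe had its lowest value (6.52) while the dim probe had its highest (5.78).

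Among the genes of glucose entry and use, Pklr had the largest difference in mean. It read 8.91, 9.10 and 10.14 in Floxed and 8.66, 9.61 and 10.29 in LKO mice. The 4 LKO mice of slide 3 lay between 9.49 and 10.29, which only Floxed 6 reached among the Floxed mice, whereas the LKO mice of slide 2 were at 8.94 and 8.66. The log2 fold change was 0.27 (SE 0.28, interval -0.34 to 0.88). Slc2a2, the glucose carrier, read 13.25, 13.31 and 13.54 in Floxed and 12.95, 13.32 and 13.62 in LKO mice, and both extremes were LKO mice. Gckr read 13.54, 13.81 and 14.13 in Floxed and 13.72, 13.96 and 14.06 in LKO mice. Their log2 fold changes were -0.03 (SE 0.11, interval -0.26 to 0.20) for Slc2a2 and 0.11 (SE 0.11, interval -0.12 to 0.35) for Gckr. Gys2 read 12.99, 13.13 and 13.61 in Floxed and 12.98, 13.15 and 13.49 in LKO mice, with a log2 fold change of -0.03 (SE 0.12, interval -0.28 to 0.23). Its second probe rose and fell with the first over the mice (Pearson r = 0.82, permutation p = 0.00077; Spearman rho = 0.80, permutation p = 0.0026; r = 0.77 without Floxed 5 and LKO 6). That probe differed by 0.05 between the genotypes, and by either probe the difference was within the spread between mice.

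Each difference was then read within and across slides. On slide 2, with 2 mice a genotype, 8 of the 9 genes were lower in LKO mice, and the exception was G6pc. Slc37a4 read 14.37 and 14.47 in the Floxed mice of that slide and 13.93 and 13.68 in the LKO mice, a difference of -0.62. With slide as a fixed block, a fit in which only slide 2 carries the genotype difference, Slc37a4 (-0.62, SE 0.14) and Gys2 (-0.40, SE 0.17) passed the unadjusted limma threshold, both with an adjusted p of 1.0. The 2 against 2 mice allow no permutation test that could reach the threshold. In that fit 1.87% of all tested genes passed, 0.881% with a lower level in LKO mice. Pklr had a log2 fold change of -0.73 on slide 2 (SE 0.35 in the same fit, not past the threshold), but LKO mice of slide 3 were 0.77 higher than Floxed mice of slide 1. G6pc turned the other way, with 0.75 on slide 2 (SE 0.44, not past the threshold) and -0.43 between slides 3 and 1. Slc37a4 and Gys2 also changed direction, and each was 0.16 higher in LKO mice between slides 3 and 1. Pck1 (-0.11 and -0.49) and Ppargc1a (-0.21 and -0.14) were lower in LKO mice in both readings. Between slides 3 and 1, slide and genotype cannot be told apart. The genotypes on slide 2 also differed in feeding-induced and clock genes, with values given below where those lists are described.

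**Figure D2:**
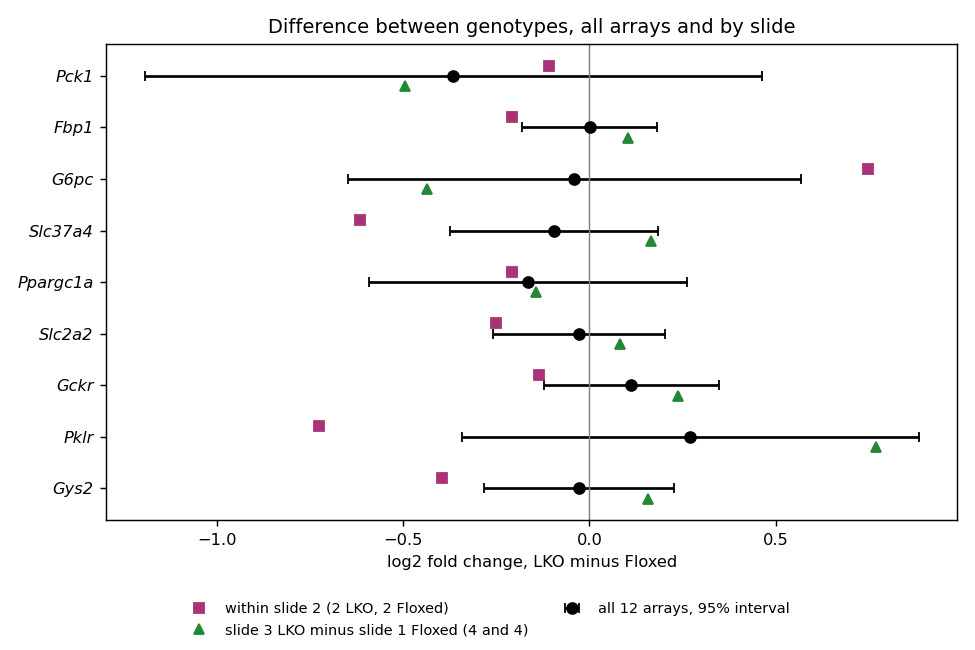
Log2 fold change, LKO minus Floxed (x axis), of each gene over all 12 arrays with its 95% interval (black), within slide 2 (squares, 2 mice a genotype) and as LKO of slide 3 minus Floxed of slide 1 (triangles, 4 mice each). All 9 intervals include 0, and for G6pc, Slc37a4, Slc2a2, Gckr, Pklr, Gys2 and Fbp1 the squares and triangles lie on opposite sides of 0.

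The levels of some of these genes differed widely between mice of the same genotype. The SD of Pck1 within genotypes was 0.75 on the log2 scale, higher than that of 98.5% of tested genes. Pklr (SD 0.55) stood at the percentile 95.3 and G6pc (SD 0.54) at 95.2. Ppargc1a followed at 83.9, and the remaining 5 genes ranged from 15.7 for Fbp1 to 53.2 for Slc37a4, where the median SD of all tested genes was 0.22. From the lowest to the highest mouse the linear level changed 6.79-fold for Pck1, 3.26-fold for G6pc and 3.10-fold for Pklr, against 1.30-fold for Fbp1. The 3 widest ranges belonged to enzymes known for acute control by hormones and diet. The part of such control in the spread between these mice was not tested.

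Whether the 9 genes varied together was tested over the 12 mice for all 36 pairs. Of these, 10 had an unadjusted permutation p below 0.05 by Pearson correlation and 0 passed after adjustment over the 36 pairs. The strongest pair was Fbp1 and Gckr, with r = 0.75 (permutation p = 0.0051, adjusted 0.111) and rho = 0.81 (permutation p = 0.0024, adjusted 0.085), and r = 0.60 without Floxed 2 and Floxed 6. Pck1 and Pklr, of which the first makes and the second uses phosphoenolpyruvate, had r = -0.67 (permutation p = 0.015, adjusted 0.111) and rho = -0.38 (permutation p = 0.219, adjusted 0.563). Without Floxed 6 and LKO 5 their r was -0.14, so this relation rested on those 2 mice, which had the lowest Pck1 and the highest Pklr of all. As deviations from the genotype mean or from the slide mean, 10 pairs again had an unadjusted p below 0.05 and 0 passed after adjustment. With 75th percentile scaling in place of quantile normalization 11 pairs had an unadjusted p below 0.05 and 0 passed adjustment by Pearson correlation, but 1 passed by Spearman. It was Fbp1 and Slc37a4, with rho = 0.87 (permutation p = 0.00055, adjusted 0.020) and r = 0.72 (permutation p = 0.010, adjusted 0.083), where quantile-normalized values gave rho = 0.72 (permutation p = 0.010, adjusted 0.131). Fbp1 and Gckr then had r = 0.55 (permutation p = 0.064, adjusted 0.191).

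Pklr followed the lipogenic genes that feeding induces. The list of feeding-induced liver genes held 10 tested genes, Pklr not among them, such as Acaca, Fasn, Acly and Me1, which make fatty acids or supply their carbon and NADPH. The mean deviation of this list ran from -0.90 in LKO 2 to 1.1 in LKO 5, with 0.78 in Floxed 6 as the next highest. The order of the mice by Pklr had the same ends, LKO 2 lowest and LKO 5 and Floxed 6 highest. Pearson r was 0.90 (permutation p = 0.00007, adjusted 0.0038) and Spearman rho 0.88 (permutation p = 0.00035, adjusted 0.019). Without LKO 2 and LKO 5 r was 0.82, as deviations from the genotype mean it was 0.90, and as deviations from the slide mean 0.89. Single genes of the list had r with Pklr from 0.49 for Srebf1 to 0.94 for Acaca. It was 1 of 54 relations, between the 9 genes and 6 measures, and the only one that passed adjustment.

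The other relations of this family were weaker. The same list had r = -0.62 with Pck1 (permutation p = 0.029, adjusted 0.132; rho = -0.38, permutation p = 0.230, adjusted 0.428; r = -0.55 without LKO 2 and LKO 5). Genes that fasting induces, 14 in number with Pdk4 and Cpt1a among them, had r = -0.03 with Pck1 and -0.06 with G6pc (permutation p = 0.919 and 0.862, rho = -0.01 and 0.05, and -0.04 and 0.07 without Floxed 2 and LKO 2). G6pc was lower in mice with a high mean deviation of the 7 clock genes high with Dbp, Per1 and Per2 among them (r = -0.70, permutation p = 0.0095, adjusted 0.086; rho = -0.78, permutation p = 0.0043, adjusted 0.081; r = -0.54 without LKO 2 and LKO 5). As deviations from the genotype mean this r was -0.77 (adjusted permutation p = 0.040), and from the slide mean -0.73 (adjusted 0.056). Single genes of that list were not set against G6pc. Slc2a2 went with the mean of the same clock genes (r = 0.77, permutation p = 0.0041, adjusted 0.068; rho = 0.57, permutation p = 0.057, adjusted 0.221), but without LKO 2 and LKO 5 r was 0.40. Pklr was lower in mice with a high mean of the 10 hepatocyte markers (r = -0.77, permutation p = 0.0036, adjusted 0.068; rho = -0.76, permutation p = 0.0063, adjusted 0.085; r = -0.67 without Floxed 1 and LKO 5). The 75th percentile of the array before normalization had r from -0.61 with Ppargc1a to 0.43 with Gckr, none past adjustment, and -0.10 with Pklr. The part of feeding, sampling time and cell makeup in these relations was not tested.

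**Figure D3:**
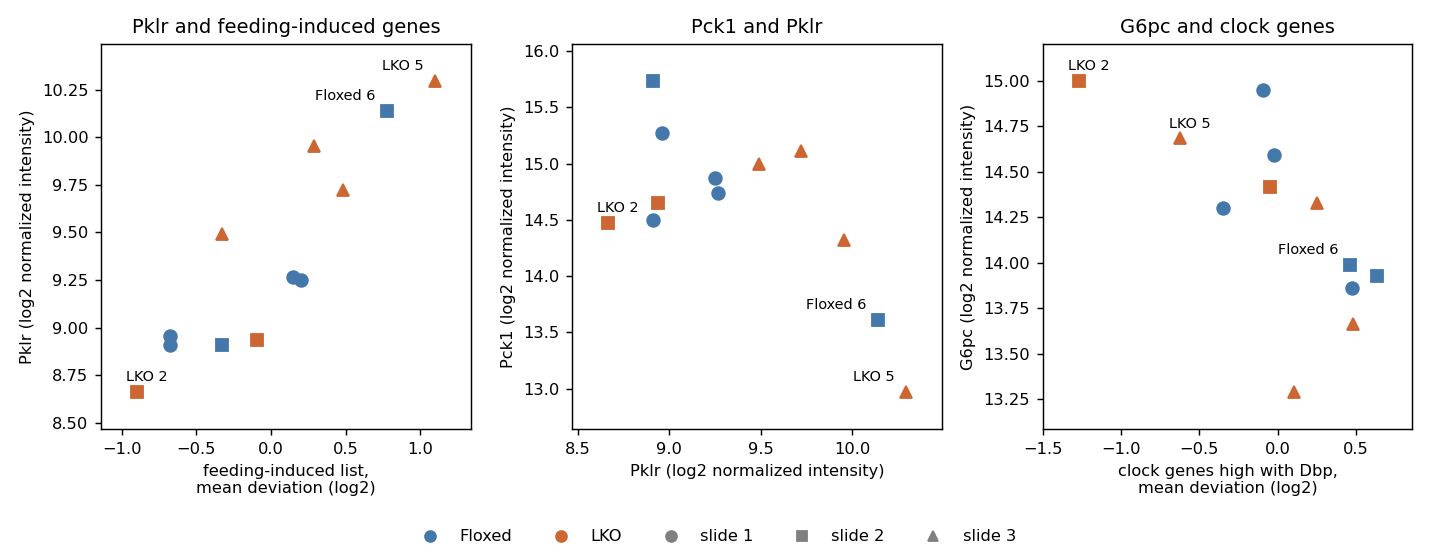
Each point is 1 mouse, colored by genotype with the symbol giving the slide; the panels set Pklr against the mean deviation of 10 feeding-induced genes (r = 0.90), Pck1 against Pklr (r = -0.67) and G6pc against the mean deviation of 7 clock genes high with Dbp (r = -0.70), all axes in log2 units. Floxed 6 and LKO 5 lie together at high Pklr and low Pck1, and LKO 2 lies at the lowest Pklr and the highest G6pc.

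The genes whose levels were most like each of the 9 were sought among 12509 tested genes with a symbol, by Pearson r over the 12 mice, as a description. For Pklr these were Acaca (0.94), the first enzyme of fatty acid synthesis, Cyb5r3 (0.93) and Sirt5 (0.93). For Pck1 they were Atp6ap2 (0.96) and the disulfide isomerases Pdia4 (0.95) and Pdia3 (0.93), and without LKO 5 these r were 0.95, 0.90 and 0.90. Fbp1 was most like Luc7l (0.93), the ATP synthase subunit Atp5a1 (0.88) and Afg3l2 (0.87). G6pc was most like Zfp868 (0.84) and the mitochondrial carrier Slc25a25 (0.84). Slc37a4 was most like Ank (0.85), Gm826 (0.83) and Oat (0.81). The first gene for Ppargc1a was Pik3ap1 (0.91), followed by Clec2d (0.88) and Rbfox2 (0.87). For Slc2a2 it was Gemin4 (0.89), followed by 1810055G02Rik (0.88) and Ppp3cb (0.85), and for Gckr it was Cd302 (0.92), followed by Bche (0.89) and Rnf13 (0.89). For Gys2 it was Bnip3 (0.88), followed by Zbed5 (0.85) and Ivns1abp (0.84). No gene named here stood in the first 3 of more than 1 of the 9.

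**Figure D4:**
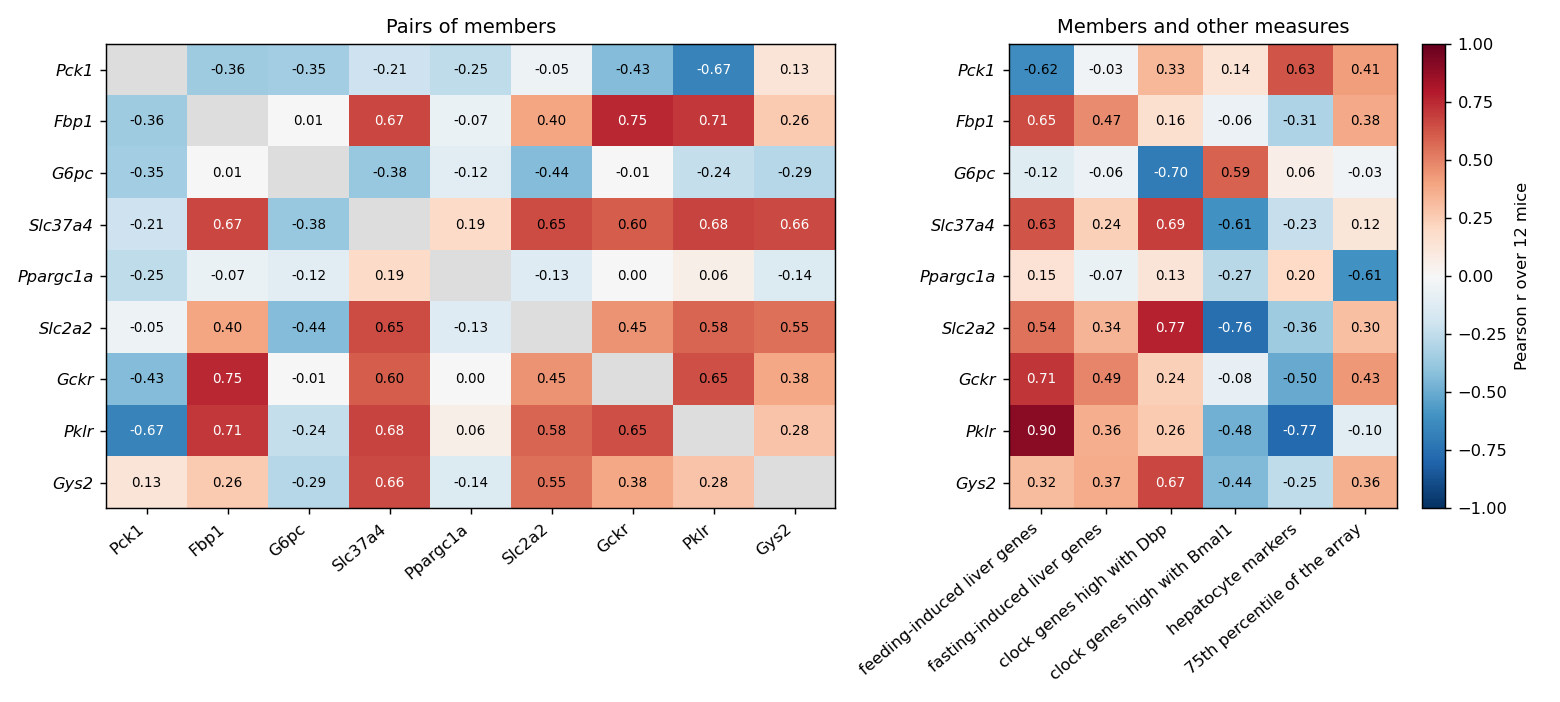
Pearson r over the 12 mice between pairs of the 9 genes (left) and between the 9 genes and 6 other measures (right), with the color scale from -1 to 1. Pklr and the feeding-induced list have the highest r (0.90), and Fbp1, Slc37a4, Gckr and Pklr have r from 0.60 to 0.75 among themselves.

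The surrounding pathway was described by 5 lists with 141 genes, of which 125 were tested. Of these, 7 passed the unadjusted threshold, 3 higher and 4 lower in LKO mice, which is 5.60% of those tested and less than the 8.35% of all tested genes. None passed after adjustment. The gluconeogenic enzymes and those shared with glycolysis had 23 of 28 tested genes with a higher mean in LKO mice, but their median log2 fold change was only 0.07. The mean of this list did not pass an exact permutation test (p = 0.335). Its LKO minus Floxed difference was -0.08 within slide 2 and 0.10 between slides 3 and 1. In this list 1 gene passed the threshold. It was Slc16a7, a carrier of lactate and pyruvate, which fell. Its level read 9.70, 11.05 and 11.32 in Floxed and 9.39, 9.64 and 10.84 in LKO mice, a log2 fold change of -0.95 (SE 0.31, adjusted p = 0.383, exact permutation p = 0.024) and -1.29 on slide 2. Pcx, pyruvate carboxylase at the entry of the pathway, had a log2 fold change of 0.12 (SE 0.10, exact permutation p = 0.240). The probe of Pck2, the mitochondrial counterpart of Pck1, was well above background on 0 of 12 arrays and so gave no comparison.

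Glycolysis and fructose entry (14 of 15 tested) and hexose transporters (11 of 17 tested) had no gene past the threshold. The medians of their log2 fold changes were 0.04 and 0.001, and their list means had an exact permutation p of 0.762 and 0.684. Among glycogen enzymes and regulators, 25 of 30 were tested, with a median of 0.06, and 2 rose (8.0%, near the 8.35% of all tested genes). The mean deviation of the glycogen list was -0.05 in Floxed and 0.05 in LKO mice (exact permutation p = 0.017, not adjusted over lists). Its LKO minus Floxed difference was -0.01 within slide 2 and 0.15 between slides 3 and 1. Gyg, the primer of glycogen, rose by 0.25 (SE 0.10, adjusted p = 0.511, exact permutation p = 0.028), with 0.12 on slide 2, which did not pass with slide as a fixed block. Ppp1r3g, a subunit that brings protein phosphatase 1 to glycogen, rose by 1.18 (SE 0.46, adjusted p = 0.50, exact permutation p = 0.052), from 5.13, 6.91 and 7.46 in Floxed to 6.24, 8.24 and 8.59 in LKO mice. On slide 2 the Ppp1r3g difference was -0.04, and the rise was seen between slides 3 and 1.

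Regulators of gluconeogenesis, from transcription factors to the receptors of insulin and glucagon, had 47 of 49 genes tested, 15 higher and 32 lower, the median being -0.05, and 4 passed the threshold, 8.51% of those tested, which is near the 8.35% of all tested genes. Ep300, an acetyltransferase coactivator, was at 6.29, 6.82 and 6.94 in Floxed and 6.00, 6.33 and 6.57 in LKO mice, and it fell by 0.49 (SE 0.13, adjusted p = 0.307). Foxa1, a forkhead factor of liver genes, fell by 0.66 (SE 0.22, adjusted p = 0.391) and Insr, the insulin receptor, fell by 0.25 (SE 0.09, adjusted p = 0.478), and the slide 2 differences of these 3 genes were -0.41, -0.60 and -0.29. With slide as a fixed block none of the 3 passed the threshold. Nr4a1, a nuclear receptor that cyclic AMP induces, rose by 0.99 (SE 0.42, adjusted p = 0.541). It read 7.26, 7.43 and 8.59 in Floxed mice and 7.41, 8.48 and 10.12 in LKO mice. The Nr4a1 difference was 2.39 on slide 2 and 0.28 between slides 3 and 1, so it was carried mostly by LKO mice 1 and 2. Under exact permutation of the 6 against 6 mice, p was 0.011 for Ep300, 0.030 for Foxa1, 0.028 for Insr and 0.061 for Nr4a1. The mean of the regulator list had an exact permutation p of 0.359. Pck1, G6pc and Ppargc1a, on which regulators of this list are known to act, did not pass the threshold.

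**Figure D5:**
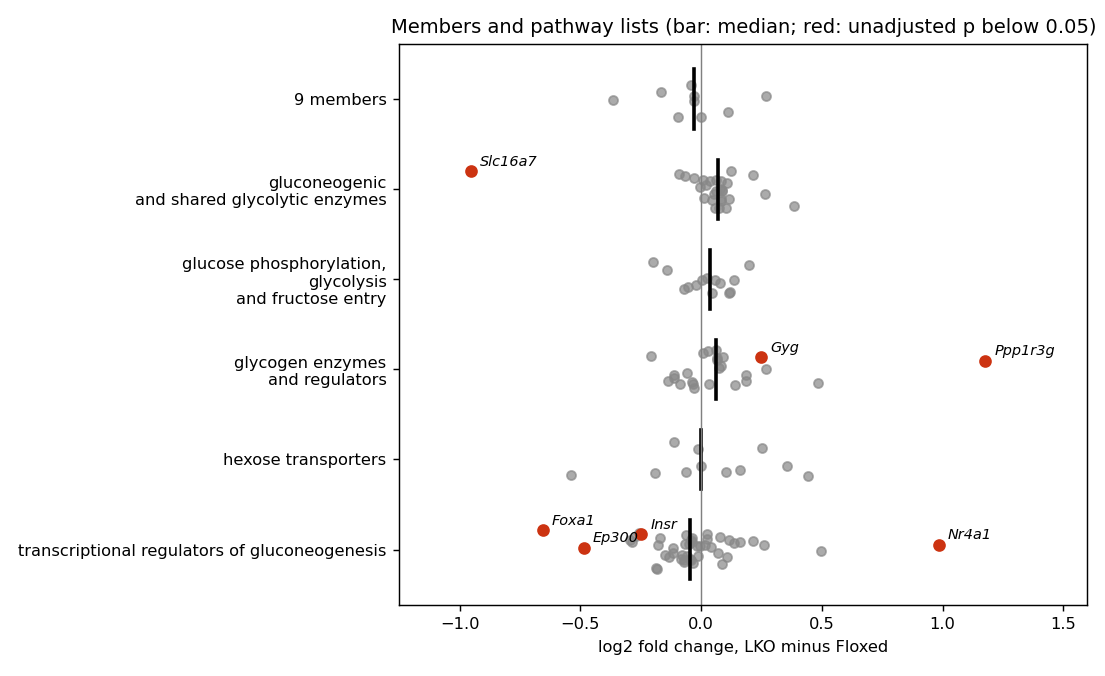
Log2 fold change, LKO minus Floxed (x axis), of the 9 genes and of the tested genes of 5 pathway lists (rows, vertical scatter for display only); bars are medians and red points have an unadjusted limma p below 0.05. None of the 9 genes is red, and the 7 red points are Slc16a7, Gyg, Ppp1r3g, Foxa1, Nr4a1, Ep300 and Insr.

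Of the 34 tested genes in lists that stand for the state of the mouse, 3 passed the threshold, which at 8.82% is near the 8.35% of all tested genes. Of 14 fasting-induced genes 1 passed, Pdk4, an inhibitor of pyruvate dehydrogenase, which rose by 1.05 (SE 0.27, adjusted p = 0.280, exact permutation p = 0.0087), and of 10 feeding-induced genes none passed. Of 7 clock genes high with Dbp 2 passed, and both fell, Per1 by 1.15 (adjusted p = 0.257) and Hlf by 0.28 (adjusted p = 0.490). The 3 tested clock genes high with Bmal1 had higher means in LKO mice without passing. The mean deviation of the feeding-induced list ranged from -0.68 to 0.78 in Floxed and from -0.90 to 1.1 in LKO mice, so the genotypes overlapped in the list that Pklr followed. Within slide 2, LKO minus Floxed was -0.72 for this list and -0.01 for the fasting-induced list. It was -1.21 for clock genes high with Dbp and 1.11 for those high with Bmal1. Between slides 3 and 1 the same 4 differences were 0.64, 0.24, 0.05 and -0.03. The part of this imbalance in the slide 2 differences of the 9 genes was not tested. A further 12 lists of liver zonation and of other cells (bile duct, macrophage, endothelial, stellate, lymphocyte, erythroid, fat, pancreas, kidney and intestine) had 52 tested genes, of which 5 passed, all higher in LKO mice. That is 9.62% of those tested, where 8.35% of all tested genes passed in either direction and 4.92% passed with a higher level. They were Lgr5 of pericentral hepatocytes, Pecam1 of endothelium, Slc22a6 of kidney tubules, and Apoa4 and Fabp2 of the intestine list, both of which the liver also expresses. Their part in the levels of the 9 genes was not tested.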

How the data were processed

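The authors extracted liver RNA, labeled it with cyanine 3 and hybridized it to Agilent mouse GE 4x44K v2 arrays, 1 mouse per array. The methods name the RiboPure kit and the labels TRIzol with a column. The scanner output was made with Agilent Feature Extraction, version 10.7.1.1 per the file headers and 9.5.1.1 in the submitters' processing notes. The authors deposited for each spot raw and processed intensity values with flags for background and outliers, without normalization between arrays. They also deposited a table of normalized intensity per probe, used here as an alternative. Their methods quantile-normalized log2 intensity and applied limma.

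From the deposited intensity, log2 processed values were quantile-normalized over 12 arrays, control spots (1377 per array) and outlier spots (0.298%) were left out, and spots of a probe were averaged. In place of the methods' filter on detection p-values, which were not used here, probes well above background (at least 0.5 of their spots) on all 12 arrays were kept, 20404 in number, with the brightest probe standing for a gene. Accessions were matched to RefSeq symbols for 94.3% of 28389 probes. LKO and Floxed mice were compared with limma 3.58.1 in R 4.3.3 (lmFit, eBayes, no covariates) at an unadjusted p below 0.05. The statistics section of the study gives other criteria, a t-test, an adjusted p below 0.05 and a log2 fold change of at least 1 in size. These were run as separate alternatives and not in combination. The t-test was counted at an unadjusted p below 0.05, and the adjusted p was that of limma. Exact permutation tests used all 924 arrangements, two-sided. Correlations used 100000 two-sided permutations (scipy 1.17.1), with Benjamini-Hochberg adjustment within each family. The slide came with the deposited array data. The number of arrays limits the precision. Nothing in the sources states whether the mice of a group came from several litters. Animal numbers in the labels are adjacent for the Floxed and LKO mouse of each replicate number, and the main fit did not pair them.

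The 9 genes and all gene lists were chosen with earlier results of these data known. Lists were written from general knowledge. Named were the 9 genes, Phgdh, genes of pathway lists past the threshold with Pcx and Pck2, the 3 genes most like each of the 9, and genes of the state and marker lists where their list is described. Some genes that this rule names are not reported here. A further 12 lists of zonation and other cell types were counted. Coordinates are those of the RefSeq table, since the probes were laid out on an older genome build. The fitting code was tested on simulated data. Alternatives covered normalization, background, the deposited table, filters, outliers, probes, thresholds, the methods' t-test, slide, replicate number and each array left out.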

Additional observations from a re-analysis of the deposited data

Results flagged for a closer look

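In groups of 6 mice, a value was taken as apart where its gap to the nearest mouse, divided by the range of the group, was above Dixon's critical value at the 95% level. Of 50 groups of values looked at, 5 passed, and chance alone gives about 1 in 20. Pck1 in LKO 5 was 12.97, below the next LKO mouse at 14.32. Pklr in Floxed 6 was 10.14, above the next Floxed mouse at 9.27. Slc16a7 in LKO 5 was 10.84, above the next LKO mouse at 9.91. Nr4a1 in Floxed 1 was 8.59, above the next Floxed mouse at 7.53, and Ep300 in Floxed 2 was 6.29, below the next Floxed mouse at 6.78. LKO 5 also had the lowest signal strength of all arrays before normalization, a 75th percentile of 239, and the part of this in its Pck1 and Slc16a7 values was not tested.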

How the results depend on the processing

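No setting but slide as a fixed block put any of the 9 genes past the unadjusted threshold. That block, whose genotype difference comes from the 4 arrays of slide 2 alone, called 2 of them (Slc37a4 at -0.62 and Gys2 at -0.40), and among all genes it called 317 in place of 1413. It reversed Pklr to -0.73, G6pc to 0.75, Fbp1 to -0.21 and Gckr to -0.14, with the same values within slide 2, where Slc37a4, Slc2a2 (-0.25) and Gys2 moved by more than the SD between mice. Among the other named genes it reversed Ppp1r3g to -0.042 and Pcx to -0.093, and Gyg (0.12), Foxa1 (-0.60), Ep300 (-0.41), Insr (-0.29) and Phgdh (-0.05) no longer passed. Slc16a7 (-1.29) and Nr4a1 (2.39) still passed the unadjusted threshold in that fit. Differences near 0 changed sign elsewhere: Fbp1 with the normexp background (-0.012) and in the deposited table (-0.00030), G6pc with normexp (0.012), and Gys2 with the mean of probes (0.013) and slide as a random block (0.0051). With 75th percentile scaling Phgdh stood at -0.34 and did not pass. The cause of these changes was not tested.

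Genes called numbered 2791 without a filter on dim probes, 0 after Benjamini-Hochberg adjustment and 91 where the threshold was a log2 fold change of 1 in size. The pathway lists, with 7 genes called, gave 12, 0 and 1 under the same settings. With each array left out, genes called ranged from 1103 to 1838 and the 9 genes stayed at 0. The pathway lists ranged from 4 without Floxed 4 to 11 without LKO 5, a setting added after seeing the data. The log2 fold change then ranged from -0.042 to 0.034 for Fbp1, -0.19 to 0.15 for G6pc, -0.090 to 0.044 for Slc2a2 and -0.089 to 0.052 for Gys2, each on both sides of 0. Pck1 ranged from -0.60 to -0.07, Pklr from 0.11 to 0.45, Slc37a4 from -0.16 to -0.01, Ppargc1a from -0.28 to -0.04 and Gckr from 0.06 to 0.17. Some calls of pathway genes were lost by leaving out 1 array: Gyg without Floxed 3 (0.23), Floxed 4 (0.21), Floxed 5 (0.23) or LKO 5 (0.20), Ppp1r3g without Floxed 4 (0.86), LKO 1 (1.04) or LKO 4 (1.03), and Insr without Floxed 5 (-0.21). Nr4a1 lost its call without any 1 of 8 arrays, with values from 0.68 without LKO 1 to 0.97. Slc16a7, Foxa1 and Ep300 passed with each array left out.

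Deviations of same-numbered mice correlated at 0.01, -0.19, 0.15, 0.32, -0.24 and 0.12 for replicate numbers 1 to 6, and 2 of 6 mice matched their own number best. The labels also carry animal numbers, which are adjacent in the Floxed and LKO mouse of each replicate number. Each such pair lay on different slides, so these correlations cannot show whether the mice were littermate pairs. With the replicate number as a block, 1428 genes, 0 of the 9 genes and 7 pathway genes passed, and Gyg (0.25) did not. With slide as a random block the correlation within slides was -0.07. Added after seeing the data, the relations of the 9 genes to the state lists numbered 1 past adjustment in the values as they are, 5 as deviations from the genotype mean and 1 from the slide mean.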
